A study of Mus musculus with 6 samples.

Results

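Calcium cycling in the heart muscle cell was followed through 10 genes: Ryr2, Casq2, Trdn, Hrc, Atp2a2, Pln, Sln, Jph2, Cacna1c and Slc8a1. They were chosen by name, for the role of their proteins in the sarcoplasmic reticulum and at its junctions with the cell surface, and the rule used no threshold on a value, though earlier results of these data were known when they were listed. Each of the 10 symbols matched 1 of the 43629 genes listed in the count files, and all 10 were among the 15470 genes with enough counts to be tested.

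RNA-Seq was performed on ventricular cardiomyocytes from CD-1 mouse embryos of embryonic day 13.5. Of 6 cultures, 3 received negative siRNA and 3 received DNMT1 siRNA, each at 12 nM, and were collected 72 h later. The DNMT1 siRNA was a pool of 4 siRNAs, all cultures came from ventricles pooled by litter, and both treatments were enriched for cardiomyocytes by differential attachment and by magnetic sorting on VCAM1, a surface protein of embryonic cardiomyocytes. DNMT1 is the enzyme that copies DNA methylation onto the new strand after replication. How the 3 cultures of a treatment relate to litters is not described, so that the p-values measure the spread between these samples. Dnmt1 was at 3446, 2760 and 2878 normalized counts with negative siRNA and at 772, 786 and 666 with DNMT1 siRNA (log2 fold change -2.03, SE 0.11, edgeR adjusted p = 0.000192), which checks the sample titles. A treatment tag of the same 3 DNMT1 siRNA samples names DNMT3a instead, and Dnmt3a was not called (log2 fold change 0.24, edgeR adjusted p = 0.0919). Counts on genes ranged from 27852412 to 35896018 per negative siRNA culture and from 13739561 to 16186310 per DNMT1 siRNA culture, and reads outside annotated exons made up 16.4% ± 1.58 and 29.3% ± 4.23 of uniquely mapped reads (SD, n = 3 each). The part of this difference in the results was not tested.

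With each beat, calcium enters the cardiomyocyte through the L-type channel, whose pore is encoded by Cacna1c, and opens the ryanodine receptor (Ryr2), which releases a larger amount of calcium from the sarcoplasmic reticulum. SERCA2a (Atp2a2) pumps this calcium back, under the brake of phospholamban (Pln) or, mostly in atrial cells, sarcolipin (Sln), while the sodium-calcium exchanger (Slc8a1) carries the calcium that entered out of the cell. Inside the store, calsequestrin 2 (Casq2) and the histidine-rich calcium-binding protein (Hrc) hold calcium, triadin (Trdn) ties calsequestrin to the release channel, and junctophilin 2 (Jph2) holds the store against the surface membrane.

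Since the knockdown targeted the enzyme that maintains methylation of CG pairs, the sequence before the start of 3 genes that were up-regulated and 2 that were not is shown with every CG pair in capitals. DNA methylation itself was not analysed here. RefSeq promoter windows of 300 bases (GRCm38.p6) were found for 7 of the 10 genes, and none was matched for Atp2a2, Sln and Trdn. Each line gives the 200 bases from position -250 to -51, counted from the annotated start, written 5′ to 3′ on the gene's strand. All 5 stretches lay outside the annotated gene. They are Ryr2 at chr13:12106996-12107195 (minus strand), Pln at chr10:53337436-53337635 (plus), Casq2 at chr3:102086165-102086364 (plus), Jph2 at chr2:163398044-163398243 (minus) and Slc8a1 at chr17:81738438-81738637 (minus).
Ryr2: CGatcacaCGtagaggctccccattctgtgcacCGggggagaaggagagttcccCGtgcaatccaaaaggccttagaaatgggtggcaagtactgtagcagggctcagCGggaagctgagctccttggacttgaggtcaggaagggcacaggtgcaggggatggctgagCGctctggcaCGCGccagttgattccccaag
Pln: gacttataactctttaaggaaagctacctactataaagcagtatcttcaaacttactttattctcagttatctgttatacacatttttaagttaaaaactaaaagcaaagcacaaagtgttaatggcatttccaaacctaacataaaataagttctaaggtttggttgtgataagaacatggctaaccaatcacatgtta
Casq2: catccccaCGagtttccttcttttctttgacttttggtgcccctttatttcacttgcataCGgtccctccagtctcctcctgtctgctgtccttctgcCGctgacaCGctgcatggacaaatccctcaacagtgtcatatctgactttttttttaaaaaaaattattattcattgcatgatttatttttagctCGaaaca
Jph2: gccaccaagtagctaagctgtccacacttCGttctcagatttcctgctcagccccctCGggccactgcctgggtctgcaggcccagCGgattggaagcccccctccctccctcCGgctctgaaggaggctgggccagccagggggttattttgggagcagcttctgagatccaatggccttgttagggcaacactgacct
Slc8a1: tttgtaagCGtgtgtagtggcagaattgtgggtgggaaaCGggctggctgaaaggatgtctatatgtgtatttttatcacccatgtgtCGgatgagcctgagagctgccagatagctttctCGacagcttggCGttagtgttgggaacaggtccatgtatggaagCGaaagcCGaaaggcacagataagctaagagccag

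Over the whole 300-base window, Ryr2 held 18 CG pairs, Slc8a1 held 9, the shown Jph2 window held 7, Casq2 held 6 and Pln held 1, where the median of 32851 mouse windows was 7. The up-regulated genes with a window had observed to expected ratios from 0.109 (Pln) to 0.566 (Ryr2), against a median of 0.384 over all windows, of which 35.8% had a ratio above 0.6. Genes that were not called ranged from 0.117 (Hrc) to 1.16 (a window of Cacna1c). The 3 starts of Cacna1c gave windows with 7, 57 and 3 CG pairs, and Hrc held 3. On either strand, the MEF2 consensus was found in the Casq2 window at position -69 and in 3.19% of all windows, and the CArG box in none of the 7 genes' windows and in 1.63% of all. The letters GATAAG were found once in Pln (position -81) and once in Slc8a1 (position -67), and in 7.44% of all windows. TATAAA was found in Pln at position -219 and in 13.6% of all windows, and the E-box CANNTG, held by 72.3% of all windows, was found for each of the 7 genes.

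Following DNMT1 siRNA treatment, 5 of the 10 genes were up-regulated: the release channel Ryr2, its partners Casq2 and Trdn, the pump Atp2a2 and its inhibitor Pln. None of the 10 was down-regulated. These changes are relative to all reads: 6 of 11 cardiomyocyte markers were up-regulated as well, and with counts scaled to those markers 0 of the 10 genes were called higher, 3 were called lower and Atp2a2 had a log2 fold change of -0.44. On that scale 106 of all 15470 tested genes were called higher and 13140 lower. Jph2, Cacna1c and Slc8a1, at the junction and in the surface membrane, differed by less than 0.2 on the log2 scale and were not called, and neither were Hrc and Sln. Genes were called with edgeR's quasi-likelihood test at an FDR below 0.05 (Benjamini-Hochberg adjustment over all 15470 genes) and an absolute fold change above 1.5. By these limits 6.49% of all tested genes were called, 4.26% higher and 2.23% lower. The median log2 fold change was 0.80 over the 10 genes and 0.00 (-0.0049) over all tested genes, and the normalized counts of all 3 DNMT1 siRNA cultures lay above all 3 negative siRNA cultures for 5 of the 10 genes and for 18.3% of all genes. In bulk samples such as these, fewer cells of a type and less RNA per cell cannot be told apart.

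**Figure D1:**
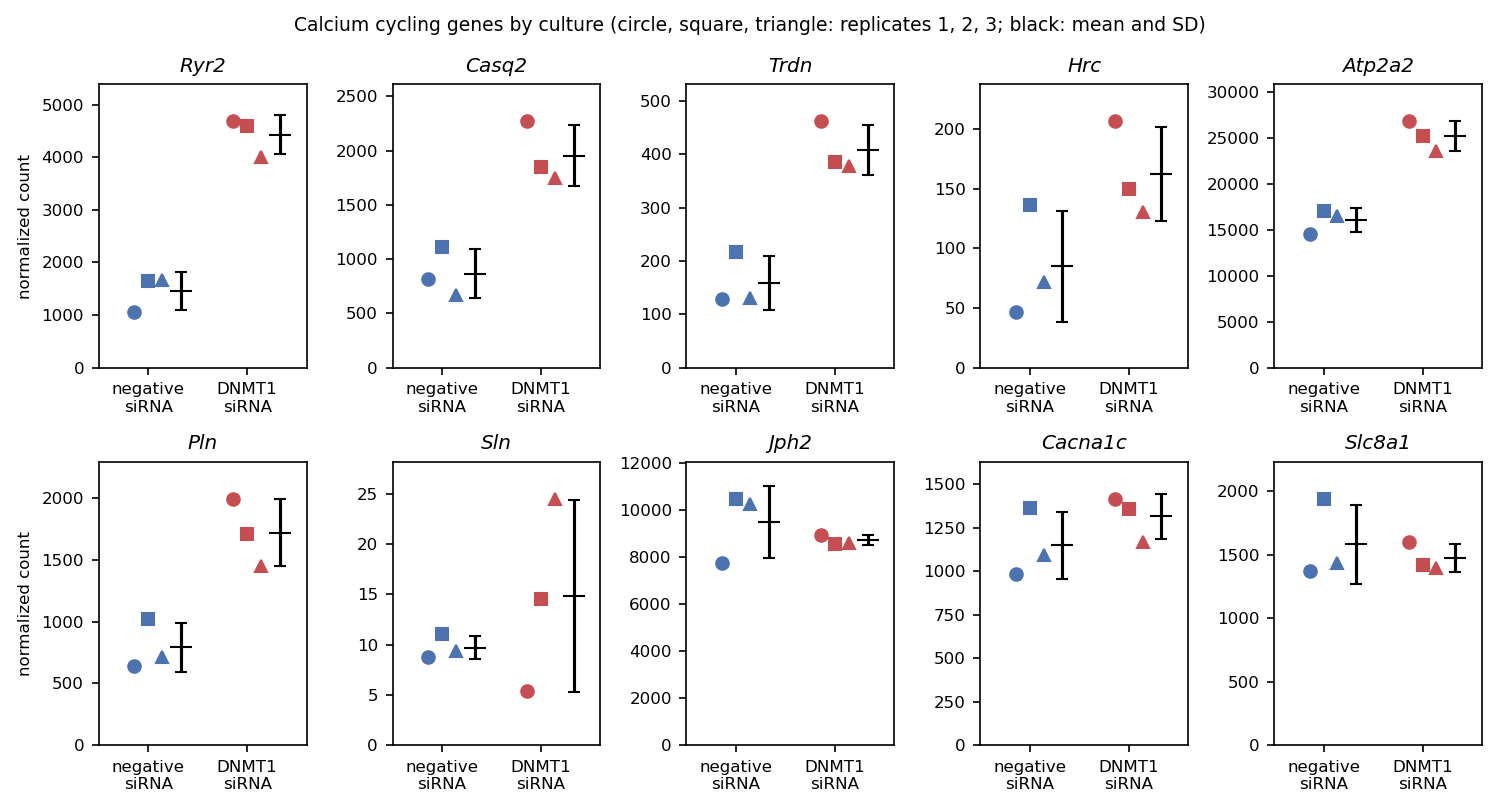
Normalized counts (y axes, linear, counts scaled to a common library size) of the 10 genes in the 3 negative siRNA cultures (blue) and the 3 DNMT1 siRNA cultures (red); circles, squares and triangles are replicates 1, 2 and 3, and black bars are the mean and SD. The red points lie above every blue point for Ryr2, Casq2, Trdn, Atp2a2 and Pln, and the treatments overlap for the other 5 genes.

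Among the genes of calcium release, Ryr2 had the largest fold change of the 10. Ryr2 (ENSMUSG00000021313, chr13:11553102-12106945, minus strand, GRCm38) was at 1051, 1657 and 1666 normalized counts in negative siRNA replicates 1, 2 and 3, and at 4679, 4600.3 and 4010.2 in the DNMT1 siRNA replicates. The groups were far apart, and negative siRNA replicate 1 was the lowest culture. The mean rose from 1458 ± 352 to 4430 ± 365 (SD, n = 3 each), a 3.04-fold change (log2 1.61, SE 0.17, 95% interval 1.22 to 1.99, edgeR adjusted p = 0.00157), which ranked 183 by size among the log2 fold changes of all 15470 genes.

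Casq2, the main calcium store protein of the cardiac reticulum (ENSMUSG00000027861, chr3:102086415-102146514), was at 815, 1111 and 671 normalized counts with negative siRNA and at 2269, 1850 and 1743 with DNMT1 siRNA. The lowest treated culture stood well above the highest control. Its fold change was 2.26 (log2 1.18, SE 0.18, edgeR adjusted p = 0.0065). Trdn, the anchor between calsequestrin and the ryanodine receptor (ENSMUSG00000019787, chr10:33080554-33476709), was at 130, 217 and 130 normalized counts and at 461, 385 and 378. It too was separated between the treatments, with a fold change of 2.57 (log2 1.36, SE 0.21, edgeR adjusted p = 0.00675). Hrc, the other luminal calcium-binding protein (ENSMUSG00000038239, chr7:45335290-45338974), was at 46.7, 136 and 71.5 with negative siRNA and at 207, 150.1 and 131 with DNMT1 siRNA. Negative siRNA replicate 2 exceeded DNMT1 siRNA replicate 3, so that the groups overlapped, and the log2 fold change of 0.94 (SE 0.37, 95% interval 0.10 to 1.79) was not past the FDR limit (edgeR adjusted p = 0.133). Without negative siRNA replicate 2 Hrc was called (log2 fold change 1.48, edgeR adjusted p = 0.00516), and it was called with all 6 cultures by DESeq2 (adjusted p = 0.045) and without the filter on low counts (edgeR adjusted p = 0.000143). That was the 1 call in 6 fits leaving out 1 culture. Hrc was also not called by edgeR's exact test (adjusted p = 0.0938) or with the replicate number as a block (edgeR adjusted p = 0.136).

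In the uptake arm, the pump and phospholamban were both up-regulated, by different factors. Atp2a2 (ENSMUSG00000029467, chr5:122453513-122502225) was at 14594, 17080 and 16467 normalized counts with negative siRNA and at 26797, 25234 and 23607 with DNMT1 siRNA. Replicates differed little beside the gap between treatments. The fold change of 1.57 (log2 0.65, SE 0.09, 95% interval 0.45 to 0.85, edgeR adjusted p = 0.00354) was close to the limit of 1.5, and without DNMT1 siRNA replicate 1 it was 1.497, under that limit.

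Pln (ENSMUSG00000038583, chr10:53337667-53345987) was at 642, 1018 and 717 normalized counts with negative siRNA and at 1995, 1711 and 1451 with DNMT1 siRNA. Here also no control reached the lowest treated culture. The fold change was 2.17 (log2 1.12, SE 0.18, 95% interval 0.70 to 1.53, edgeR adjusted p = 0.00796). Pln shares 5.1% of its exon bases with Cep85l on the opposite strand, which had 12.8% of its counts, and a further annotated RNA on that strand, Gm47644, covers 59.5% of them. Whether the counting used strand is not given in the sources used here, so that reads of these genes may not be told apart. Sln, the inhibitor typical of atrial cells (ENSMUSG00000042045, chr9:53850164-53854560), was almost silent, with 15, 16 and 12 raw counts per negative siRNA culture and 4, 10 and 15 per DNMT1 siRNA culture. Its normalized counts of 8.75, 11.03 and 9.33 against 5.36, 14.6 and 24.5 overlapped, and at this depth no difference was detectable (log2 fold change 0.57, 95% interval -0.56 to 1.70, edgeR adjusted p = 0.481).

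The genes of the junction, of entry and of extrusion were not called. Jph2 (ENSMUSG00000017817, chr2:163336242-163397993) was at 7736, 10485 and 10246 normalized counts with negative siRNA and at 8960.2, 8574 and 8603 with DNMT1 siRNA. The treated cultures lay close together between the lowest and the middle control (log2 fold change -0.12, 95% interval -0.38 to 0.14, edgeR adjusted p = 0.512). Cacna1c (ENSMUSG00000051331, chr6:118587240-119196418) was at 986, 1364 and 1095 and at 1417, 1359 and 1169, again with overlap (log2 fold change 0.20, 95% interval -0.10 to 0.49, edgeR adjusted p = 0.352). Slc8a1 (ENSMUSG00000054640, chr17:81373105-81738377) was at 1370, 1939.9 and 1434 and at 1598, 1419.7 and 1395. Negative siRNA replicate 2 was its highest culture, and its log2 fold change of -0.10 (95% interval -0.41 to 0.20, edgeR adjusted p = 0.65) became 0.071 without that culture. All 3 intervals lay inside the 1.5-fold limits in both directions.

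The spread among the control cultures had a pattern shared by most of the genes. Negative siRNA replicate 2 was the highest control for 9 of the 10 genes and replicate 1 the lowest for 9, though for Trdn only narrowly (129.55 against 129.86). DNMT1 siRNA replicate 1 was the highest treated culture for 9. The same counts were not made over all tested genes. The order is not particular to the 10 genes: summed cardiomyocyte and fibroblast markers were also highest in control replicate 2 and lowest in replicate 1. Summed epicardial markers were lowest in replicate 2. The median ratio of the highest to the lowest culture was 1.5 among controls and 1.21 among treated cultures for the 10 genes, against 1.26 and 1.14 over all tested genes. Leaving out 1 culture at a time, Ryr2, Casq2, Trdn and Pln were called in 6 of 6 fits and Atp2a2 in 5 of 6. When the test itself required more than a 1.5-fold change (edgeR's glmTreat), Ryr2 was called (adjusted p = 0.0122), and Trdn, Casq2, Pln and Atp2a2 were not (adjusted p = 0.0673, 0.085, 0.119 and 1).

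Levels per length, in CPM (reads scaled to library size) over kilobases of merged exons, ranked Atp2a2 and Jph2 far above the other genes. With negative siRNA, Atp2a2 was at 121.5 ± 9.81, Jph2 at 102.7 ± 16.5, Casq2 at 14.6 ± 3.77 and Pln at 13.2 ± 3.32 (SD, n = 3). Below them came Slc8a1 at 3.87 ± 0.765, Cacna1c at 2.50 ± 0.424, Ryr2 at 2.33 ± 0.564, Hrc at 1.52 ± 0.832, Trdn at 0.782 ± 0.249 and Sln at 0.339 ± 0.0414. Between neighbours in this order, the ranges over cultures overlapped for Atp2a2 and Jph2, for Casq2 and Pln, and from Cacna1c through Ryr2 and Hrc to Trdn. With DNMT1 siRNA, Atp2a2 (190.9 ± 12.1) stood clear of Jph2 (94.3 ± 2.33). Casq2 at 32.9 ± 4.68 and Pln at 28.7 ± 4.55 still overlapped. Ryr2 at 7.09 ± 0.584 was followed by Slc8a1 at 3.60 ± 0.272, whose range overlapped that of Hrc at 2.92 ± 0.706. Hrc in turn overlapped Cacna1c at 2.86 ± 0.282. Trdn stood at 2.01 ± 0.228 and Sln at 0.518 ± 0.335. Lengths limit the comparison for genes with many isoforms: with the longest transcript in place of merged exons, the negative siRNA level of Ryr2 was 3.99, that of Cacna1c 4.02 and that of Trdn 1.62, and Ryr2 then stood beside Slc8a1 (3.94) in the controls already.

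Ratios between 2 of the genes within a culture do not depend on library size. Per 100 counts of Atp2a2, Pln was at 4.40, 5.96 and 4.35 counts with negative siRNA and at 7.45, 6.78 and 6.15 with DNMT1 siRNA. The inhibitor was thus higher relative to its pump in all 3 treated cultures (log2 difference 0.48). Slc8a1, which competes with the pump for cytosolic calcium, was at 9.39, 11.4 and 8.71 counts per 100 of Atp2a2 and at 5.97, 5.63 and 5.91, lower in all 3 treated cultures (log2 difference -0.74). Relative to Ryr2, the junctional Jph2 was at 736, 633 and 615 counts per 100 with negative siRNA and at 192, 186 and 215 with DNMT1 siRNA (log2 difference -1.74), and Cacna1c was at 93.8, 82.4 and 65.7 and at 30.3, 29.5 and 29.2 (log2 difference -1.43). Each of these 4 ratios was fully separated between the treatments, with p = 0.1 by a two-sided exact permutation test, the smallest p that 3 against 3 allow, and an adjusted p of 0.2 over the 8 ratios. The ratios use the same counts as the fold changes above. The 3 lower ones set a gene that was not called against Atp2a2 or Ryr2, which were up-regulated. The other 4 ratios overlapped. Casq2 was at 61.6 ± 19.2 and 44.1 ± 4.17 counts per 100 of Ryr2 (exact permutation p = 0.3, n = 3 each), and Trdn at 11.1 ± 2.87 and 9.22 ± 0.768 (exact permutation p = 0.4). Hrc was at 9.56 ± 3.42 and 8.24 ± 0.806 counts per 100 of Casq2 (exact permutation p = 0.7), and Sln at 0.0604 ± 0.00397 and 0.0606 ± 0.042 counts per 100 of Atp2a2 (exact permutation p = 0.8).

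**Figure D2:**
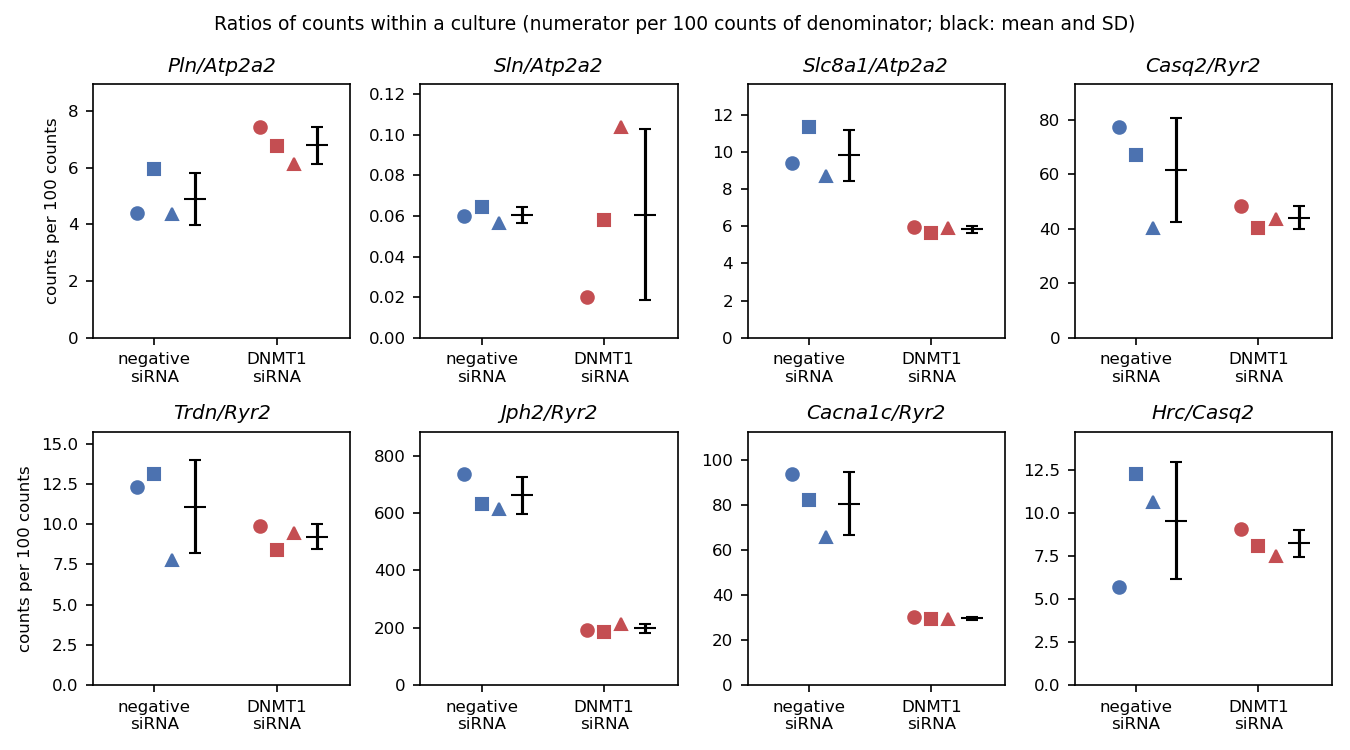
Counts of 1 gene per 100 counts of another in the same culture (y axes, linear, starting at 0), for 8 pairs of the 10 genes; points are the 3 cultures of each treatment (blue negative siRNA, red DNMT1 siRNA), and black bars are the mean and SD. Pln/Atp2a2 is higher and Slc8a1/Atp2a2, Jph2/Ryr2 and Cacna1c/Ryr2 are lower in all 3 treated cultures, and the other 4 pairs overlap.

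Each member of a gene family was also set against its paralogs, as a share of the family's counts per kilobase. These shares are descriptions, with no test. Ryr2 made up 90.7%, 86.3% and 89.8% of the ryanodine receptors with negative siRNA and 98.9%, 96.9% and 97.4% with DNMT1 siRNA. The treatments did not overlap, and the remainder was mostly Ryr3, a broadly expressed paralog, at 10.2% ± 2.51 and 1.70% ± 0.671 (SD, n = 3 each). Ryr3 itself was not called (log2 fold change -1.17, edgeR adjusted p = 0.102), nor was the skeletal muscle gene Ryr1 (log2 fold change 0.96, edgeR adjusted p = 0.38). Slc8a1 made up 89.6%, 91.8% and 89.4% of the exchangers and 81.6%, 78.9% and 82.1% after knockdown, while Slc8a2, a paralog known mainly from brain, was up-regulated (log2 fold change 1.11, edgeR adjusted p = 0.0116) and its share went from 8.23% ± 1.198 to 16.7% ± 1.404. For the L-type pore, the share of Cacna1c was 87.9%, 93.2% and 90.6% and then 87.6%, 84.9% and 84.3%. The skeletal muscle pore Cacna1s was up-regulated (log2 fold change 1.61, edgeR adjusted p = 0.00908) from a low level, with 15 to 33 raw counts per culture, and had 3.49% ± 0.323 and 8.89% ± 1.00 of the family. Cacna1d had 5.94% ± 2.63 and 5.49% ± 0.978.

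The share of Casq2 among the calsequestrins overlapped between the treatments, at 64.5% ± 7.83 in the controls and 63.4% ± 1.04 after knockdown (SD, n = 3 each). Casq1, its skeletal muscle paralog, was up-regulated by a factor close to that of Casq2 (log2 fold change 1.25, SE 0.20, edgeR adjusted p = 0.00681). Atp2a2 made up 99.6% ± 0.128 and 99.7% ± 0.057 of the SERCA pumps, and Jph2 97.2% ± 0.842 and 96.8% ± 0.201 of the junctophilins. The paralogs of these genes that could be tested were not called: Atp2a3 had a log2 fold change of 0.074, Jph1 of 0.088 and Jph4 of -0.30, and Atp2a1, Jph3 and Slc8a3 were under the filter on low counts. Asph, whose locus also encodes the triadin partner junctin, was not called, with a log2 fold change of -0.020 (edgeR adjusted p = 0.859), but the gene total does not separate junctin from its other products.

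**Figure D3:**
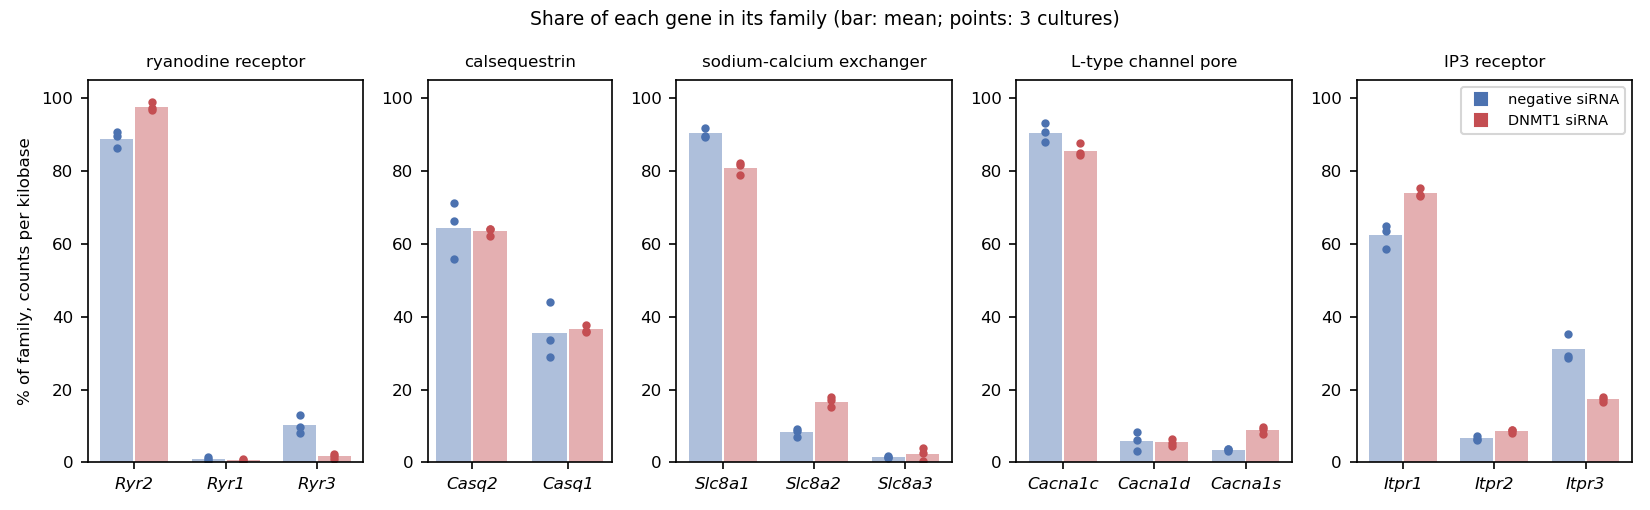
Share of each gene in its family (y axis, % of the family's counts per kilobase of merged exons) for 5 families; bars are means and points the 3 cultures of each treatment (blue negative siRNA, red DNMT1 siRNA). Ryr2, Itpr1 and Itpr2 are higher and Slc8a1, Itpr3 and, by a narrow margin, Cacna1c are lower in all 3 treated cultures than in every control. The Casq2 share overlaps between the treatments.

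Markers of some cell types were called between the treatments, where 6.49% of all tested genes were. Of 11 cardiomyocyte markers, 6 were up-regulated (Ttn, Actc1, Myh6, Actn2, Nkx2-5 and Tnnt2), and their summed level was 2468 to 3167 CPM with negative siRNA and 5277 to 6422 with DNMT1 siRNA. The 10 calcium cycling genes summed to 1261 to 1613 and 1958 to 2229 CPM. Of 8 fibroblast markers 3 were down-regulated (Col1a1, Col1a2 and Dcn), and their sum, which was large in every culture of these VCAM1-sorted cells, was 36082 to 55676 against 27401 to 29238 CPM. Of 7 endothelial markers 3 were up-regulated (Kdr, Emcn and Npr3; sums of 73.7 to 102 against 196 to 208). Pecam1, Cdh5 and Tie1 had log2 fold changes above 0 and were not called. Tek went the other way (log2 fold change -0.35, edgeR adjusted p = 0.0373), past the FDR limit only. Npr3 alone went from a mean of 333 to 2232 normalized counts. Among 5 epicardial markers 1 was down-regulated (Krt19; 1452 to 1719 against 1634 to 1705). Of 5 smooth muscle markers 1 was up-regulated: Myocd, which the paper also names among transcription factors of cardiac gene regulation. The other 4 had log2 fold changes from -0.43 to -1.49 and were not called (Acta2, at -0.51, was past the FDR limit only, edgeR adjusted p = 0.0457). The median log2 fold change of the smooth muscle list was -0.51, and its sum was 4977 to 7666 against 4265 to 4462 CPM. None of 6 macrophage markers was called (10.2 to 29.9 against 8.83 to 14.5), but their median log2 fold change was -1.34 and only Cd68 was above 0. Among 4 skeletal muscle markers tested 1 was up-regulated (Ckm; 23.4 to 37.9 against 39.0 to 44.3), and the 1 erythroid marker tested was not called (0.51 to 1.29 against 1.24 to 2.55, with Hba-x and Hbb-bh1 at 0). Of 9 atrial markers tested, a list that includes Sln, 2 were up-regulated and 1 was down-regulated (309 to 495 against 431 to 507), and of 5 ventricular markers 2 were up-regulated (86.9 to 178 against 209 to 272). Vcam1, the sorted protein, had a log2 fold change of -0.26 and was not called (edgeR adjusted p = 0.148). The part of these markers in the results was not tested beyond the scaling that follows.

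Scaled to the summed counts of the 11 cardiomyocyte markers in place of library size, the 10 genes formed other groups, and the median log2 fold change of all tested genes became -1.10. Ryr2 was at 19.6, 24.1 and 27.7 counts per 1000 marker counts with negative siRNA and at 33.6, 34.3 and 35.0 with DNMT1 siRNA. It was higher in all 3 treated cultures, with a log2 fold change of 0.53 that was past the FDR limit and under the 1.5-fold limit (edgeR adjusted p = 0.00644). Pln (0.039), Casq2 (0.091) and Hrc (-0.11) had log2 fold changes near 0 on this scale, and Trdn had 0.29 (SE 0.19). Pln, Casq2, Trdn and Hrc were not called (edgeR adjusted p from 0.161 to 0.831), and all lay above the median of -1.10. Atp2a2 was at 272, 248 and 274 counts per 1000 marker counts and then at 192, 188 and 206, with a log2 fold change of -0.44 (edgeR adjusted p = 0.0238), under the 1.5-fold limit. Jph2 (-1.20), Slc8a1 (-1.18) and Cacna1c (-0.89) were called lower relative to the markers, and all 3 treated cultures of each lay below all 3 controls. So were most genes on this scale, with 13140 of all 15470 tested genes called lower and 106 higher, and these 3 values lie near the median of -1.10. Which direction is given for Atp2a2, Hrc, Sln and Cacna1c depends on this choice of scale, and the rise of Casq2, Trdn and Pln relative to all reads was not detected relative to the markers, 6 of which were themselves up-regulated.

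**Figure D4:**
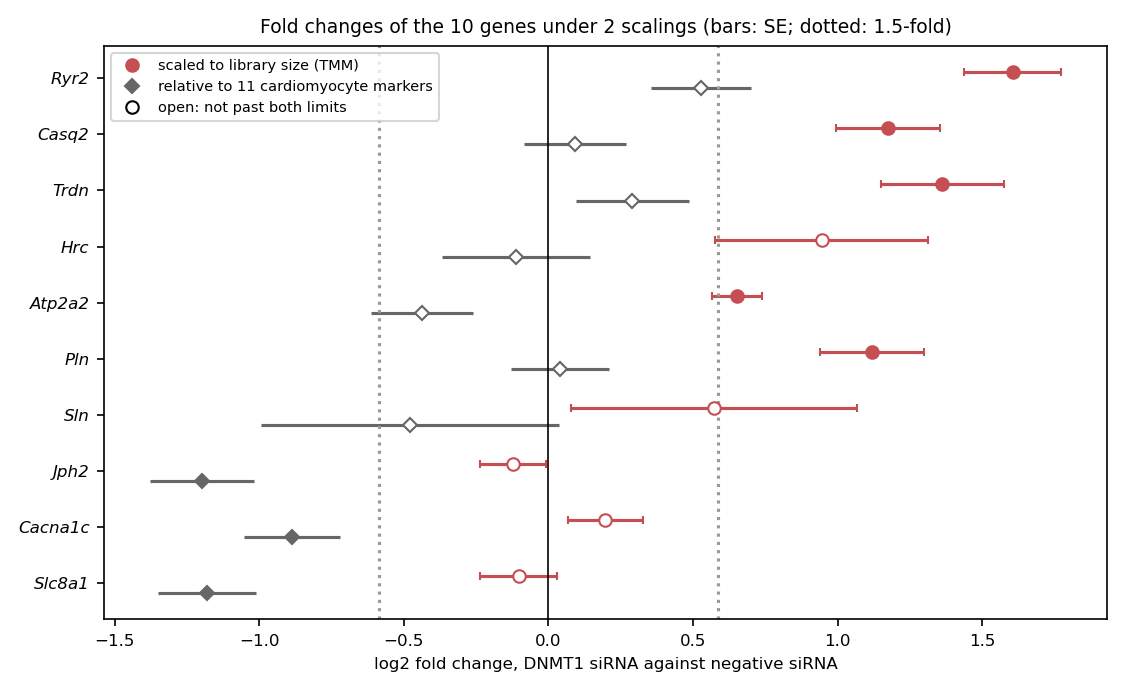
Log2 fold change (x axis, DNMT1 siRNA against negative siRNA) of the 10 genes with counts scaled to library size (red circles) and to 11 cardiomyocyte markers (grey diamonds); bars are standard errors, dotted lines the 1.5-fold limit, and filled symbols genes past both limits. On the library scale 5 genes are filled on the right, and on the marker scale Jph2, Cacna1c and Slc8a1 are filled on the left, with Ryr2 at 0.53. The median of all tested genes on the marker scale, not drawn, was -1.10.

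Besides the 10 genes, the wider lists held 100 genes of calcium handling, of which 86 were tested. By the main quasi-likelihood fit 11 were up-regulated, where 4.26% of all tested genes were, and none was down-regulated, where 2.23% were. The adjusted p was under the limit but the fold change under 1.5 for 8 higher and 7 lower genes. Their median log2 fold change was 0.00 (-0.0034). With the 10 genes included, 6 of 18 tested genes of release and its regulators, 3 of 8 of the pumps and their small regulators, 1 of 9 of the junction, 2 of 14 of L-type entry, 1 of 6 of extrusion and 3 of 18 of kinases, phosphatase regulators and anchors were up-regulated, and none of 14 of store-operated entry and none of 9 of mitochondrial uptake. Strit1, whose small protein DWORF relieves the pump of its inhibitors, was at 0 in all 6 cultures.

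Near the release channel, the up-regulated genes beside Casq1 were S100a1, an EF-hand protein that binds the ryanodine receptor and the pump (log2 fold change 0.70, SE 0.14, edgeR adjusted p = 0.0173), and Itpr2, an IP3 receptor of cardiomyocytes (0.68, SE 0.11, adjusted p = 0.00786). Among the IP3 receptors, Itpr1 made up 62.3% ± 3.36 and 74.0% ± 1.25 of counts per kilobase and Itpr3 31.1% ± 3.74 and 17.3% ± 0.785 (SD, n = 3 each), with log2 fold changes of 0.55 and -0.56 that were past the FDR limit and under the 1.5-fold limit (edgeR adjusted p = 0.00319 and 0.0382). Beside the pump, Srl, which encodes the luminal protein sarcalumenin, was up-regulated (log2 fold change 1.06, SE 0.19, edgeR adjusted p = 0.013). In the junction list it was Popdc2, a cAMP-binding membrane protein (1.04, SE 0.10, edgeR adjusted p = 0.0013), and in the entry list Cacna2d2, an auxiliary channel subunit with 9 to 32 raw counts per culture (1.603, SE 0.37, edgeR adjusted p = 0.0289). In the list of kinases and anchors they were Ppp1r3a, a glycogen-targeting subunit of protein phosphatase 1 (1.76, SE 0.34, edgeR adjusted p = 0.0162), Camk2b, a calcium/calmodulin-dependent kinase (1.22, SE 0.14, adjusted p = 0.00199), and Akap6, an anchor of protein kinase A (1.06, SE 0.08, adjusted p = 0.000615). Ppp1r3a, Cacna1s, Cacna2d2, Slc8a2, Srl, S100a1 and Itpr2 each lost the call when at least 1 of the DNMT1 siRNA cultures was left out, Cacna2d2 also lost it with the replicate number as a block, and with DNMT1 siRNA replicate 2 or 1 left out the wider lists gave 9 and 10 called genes in place of 16.

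**Figure D5:**
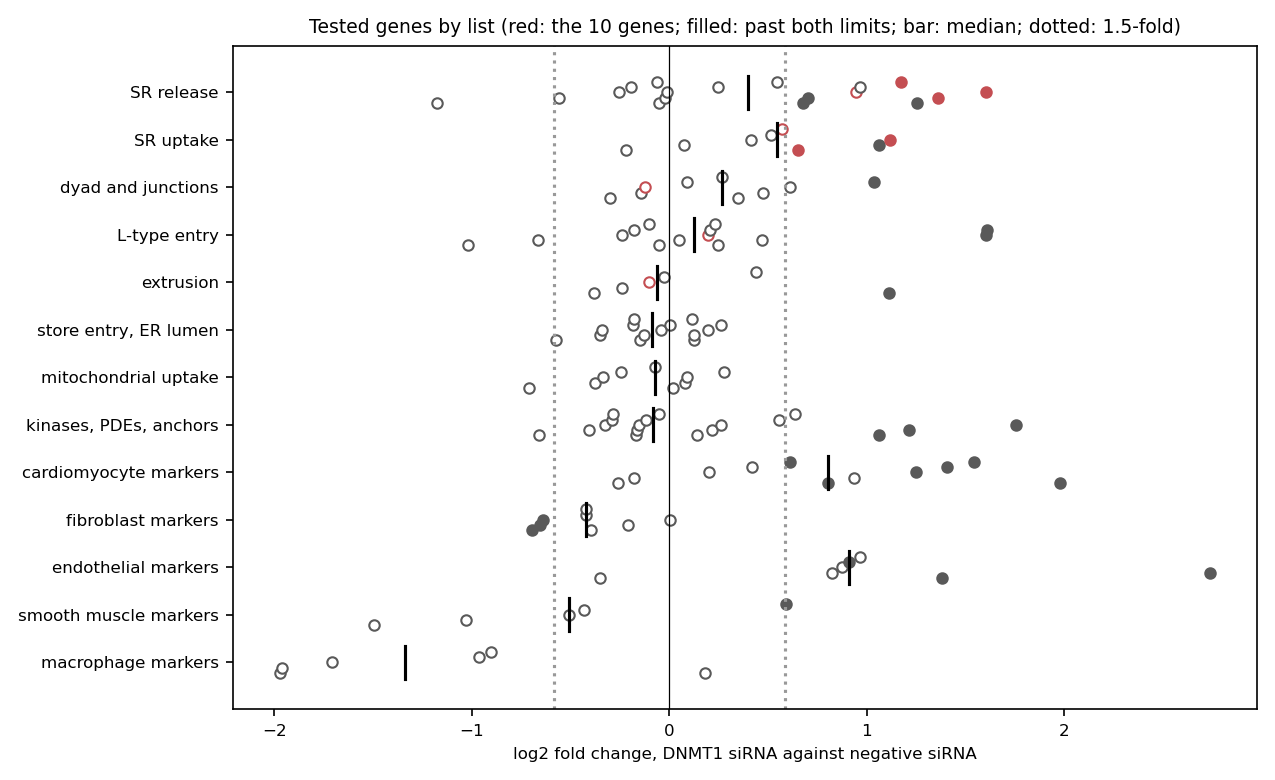
Log2 fold change (x axis, DNMT1 siRNA against negative siRNA) of the tested genes of 8 calcium handling lists and 5 cell type marker lists; red points are the 10 genes, filled points are past both limits, vertical bars are list medians, and dotted lines mark 1.5-fold. Filled red points lie in the lists of release and uptake, and the medians of store entry (-0.086) and mitochondrial uptake (-0.070) lie near 0.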

How the data were processed

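RNA-Seq was analysed in 3 negative siRNA and 3 DNMT1 siRNA cultures. Per the labels and the paper's methods, the authors checked reads with FastQC, mapped them with TopHat2 to GRCm38 (mm10) and used HTSeq to count reads on Ensembl genes (versions not given in the sources used here). They deposited raw counts without normalization. Rows for reads given to no gene were left out of library sizes.

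Counts were tested in R 4.3.3 with edgeR 4.0.16 (quasi-likelihood F test, TMM normalization, filterByExpr with minimum count 10 and minimum total count 15, no block), as alternatives with DESeq2 1.42.0, edgeR's exact test and glmTreat, RLE normalization, no filter, no limit on fold change, a replicate block, without each culture, without ribosomal, mitochondrial and short non-coding genes, and with library size from cardiomyocyte markers. Standard errors were derived from each log2 fold change and its F statistic. Counts called normalized were scaled to the geometric mean of the effective library sizes. Exon lengths and gene positions came from GENCODE vM21 (GRCm38), which holds 42462 of the 43629 genes, and differ from the authors' annotation. Scripts were checked on simulated counts. No 2 cultures of a treatment were copies of a library (chi-square per degree of freedom 2.89 to 59.69).

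The 10 genes and all gene lists were chosen with earlier results of these data known. Named genes are the 10, their paralogs, Asph and Srl, the methyltransferases, and every gene of the wider lists past both limits. Besides the cell type markers, Itpr1, Itpr3, Strit1 and the genes overlapping Pln were named outside this rule. Of the wider lists, 108 of 110 symbols were matched.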

Additional observations from a re-analysis of the deposited data

Results flagged for a closer look

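Reads outside annotated exons, which enter no comparison of genes, made up 29.3% of uniquely mapped reads with DNMT1 siRNA (24.4% to 32.0% over 3 cultures) and 16.4% with negative siRNA (14.6% to 17.5%). The share was higher in every DNMT1 siRNA culture than in any control, and its cause was not tested. Reads that fell in more than 1 gene made up 6.15% of uniquely mapped reads with DNMT1 siRNA and 3.62% with negative siRNA, and were not counted for any gene. Of the calcium cycling genes, Cacna1c spans 609.2 kb and Ryr2 553.8 kb of the genome, and Trdn spans 396.2 kb. The part of these reads in the values of the 10 genes was not tested.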

How the results depend on the processing

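Of 150 fold changes of the 10 genes under other settings, 131 kept their direction and their side of the limits, 9 kept their direction and lost the call, 5 kept it and gained one, and 5 changed sign, among them Atp2a2, which also lost its call, and Cacna1c, which gained one, both with marker scaling. Scaled to cardiomyocyte markers, 0 of the 10 genes were called higher and 3 lower, and Atp2a2 (log2 fold change -0.44), Sln (-0.48), Cacna1c (-0.89) and Hrc (-0.11) turned below 0. With this scaling 13140 of all 15470 tested genes were called lower. Leaving out 1 culture at a time, the log2 fold change of Slc8a1 ranged from -0.20 to 0.071 (without negative siRNA replicate 2), the log2 difference of Sln/Atp2a2 from -0.83 to 0.36 (without DNMT1 siRNA replicate 1) and that of Hrc/Casq2 from -0.48 to 0.072 (without negative siRNA replicate 2). With glmTreat, 1 of the 10 genes, 4 genes of the wider lists (16 with the quasi-likelihood test, the 10 genes included) and, of the markers of other cell types (5 higher and 4 lower), 1 higher and 0 lower were called. Lower genes of the wider lists (0) numbered 7 without the limit on fold change, 7 without the filter, 2 with DESeq2, 2 with the exact test and 1 with the replicate block. The other cell type markers numbered 8 higher and 11 lower without the filter, 8 lower with DESeq2, 9 lower with the exact test and 3 higher with the replicate block.

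Without 1 culture at a time, the 10 genes gave 4 to 6 calls higher and 0 lower, the wider lists 9 to 22 higher and 0 to 3 lower, the markers of other cell types 1 to 9 higher and 0 to 10 lower, and the ratios 1 above and 3 to 5 below. The count of 5 ratios below came without negative siRNA replicate 3. The cause of these shifts was not tested. Over all genes, 659 were called higher and 345 lower, against 140 and 36 with glmTreat, 1054 and 874 without the limit on fold change, 994 and 701 without the filter, which moved the median log2 fold change to 0.11, 106 and 13140 with marker scaling, 694 and 437 with DESeq2, and 255 to 316 and 112 to 146 without 1 DNMT1 siRNA culture. Cultures of equal replicate number did not deviate together (correlations 0.0064, -0.021 and 0.027) and are not described as pairs. With the replicate block, 513 genes were called higher and 285 lower, and the calls of the 10 genes did not change (adjusted p 0.00769 for Ryr2 and 0.0105 to 0.0182 for Atp2a2, Pln, Casq2 and Trdn), while Cacna2d2 lost its call. Levels per length moved for Ryr2, Cacna1c and Trdn with the longest transcript, as given above, and 7 of 10 stayed within 1 SD. Depth limits Sln, with 4 to 16 counts per culture, most among the 10 genes.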
